A study of Mus musculus with 18 samples.

Results

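The comparison covered the 6 libraries whose brain region is labelled Dorsal, of 18 in the series: 3 of control pups and 3 of pups labelled RXRg, RARb double mutant (dKO), all taken on postnatal day 0. They were chosen by that label alone. The double mutant carries altered Rarb and Rxrg, a pair of nuclear receptor genes. The other genotype is labelled control, with the letters WT (set A below) or W (sets B and C) in the titles. Nothing used here states strain, breeding, sex, litter or which exons were altered. Brains were frozen and frontal pieces cut out, and the dissection notes name medial frontal, motor and orbitofrontal tissue without saying which of these is the dorsal one. Title prefixes and index sequences arrange the dorsal libraries in 3 sets of 1 control and 1 dKO, called A (prefix RAR), B and C (prefix RXR), and no label says that a set is a litter or a day. Nothing states that the libraries came from separate animals. The main p-values therefore measure the spread between samples over all 18 libraries, which may be technical.

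Retinoic acid, a derivative of vitamin A, enters the nucleus and binds retinoic acid receptors (Rara, Rarb, Rarg), which sit on DNA as pairs with retinoid X receptors (Rxra, Rxrb, Rxrg). Retinol and retinaldehyde dehydrogenases make it in and around the developing forebrain, and Cyp26 enzymes break it down. In the cortex the signal is known for roles in neuronal differentiation and in synapses.

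The 6 dorsal libraries held 28957325 to 70636819 counted fragments, with the deepest pair in set A. Values below are CPM, fragment counts scaled to a common library size and composition. All 12 markers of dorsal pallium, the embryonic source of most of the cortex, were measured. Neurod6, a transcription factor of cortical projection neurons, was at 867 to 1417 CPM. Striatal markers Ppp1r1b (76.6 to 103 CPM) and Drd1 (31.2 to 47.5 CPM) were present too, while Drd2 reached at most 1.29 CPM and the choroid plexus marker Ttr at most 1 CPM. Xist and the Y-linked Ddx3y placed the 3 control libraries and the dKO library of set B with males, and the dKO of set A and that of set C with females. Genotype and sex cannot be told apart in sets A and C, and the part of sex in the results was not tested beyond a fit with sex as a covariate.

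The targeted genes came first, as a check of the labels. Rarb (ENSMUSG00000017491, GRCm38 chromosome 14, 16430839 to 16819156, minus strand) stood at 3.75, 5.73 and 5.54 CPM in controls and at 3.01, 2.3 and 2.36 CPM in dKO, in the order of sets A, B and C that is kept throughout. Every dKO value lay under every control value, and the gap was narrowest in set A. The log2 fold change was -0.98 (SE 0.36, edgeR adjusted p = 0.597), so Rarb did not pass the test over all genes. Rxrg (ENSMUSG00000015843, chromosome 1, 167598384 to 167639623, plus strand) stood at 1.76, 31.6 and 3.53 CPM in controls and at 1.02, 1.36 and 0.722 CPM in dKO. The control of set B was the high one, and no dKO value reached a control value (log2 fold change -3.34, SE 1.03, adjusted p = 0.513). Without that control the Rxrg difference was -1.34. Rxrg passed in 1 of 18 fits, the edgeR fit with no filter on low counts (adjusted p = 0.015). Counts cover whole genes and do not show which part of a transcript was left.

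A Rarb promoter is a textbook target of retinoic acid and is shown for the receptor's binding letters. GTTCANNNNNNGTTCA, a direct repeat of the receptor's short core site, was searched on both strands of 32851 RefSeq promoters (250 bases before to 50 after a start, build GRCm38.p6). It occurred in 25 of them, 0.0761%, the Rarb promoter included, where it starts 52 bases before the start site. Below are the last 120 bases before the start, 5′ to 3′ on the gene's strand, with both core sites in capitals.
Rarb (chr14:16575477-16575596, minus strand): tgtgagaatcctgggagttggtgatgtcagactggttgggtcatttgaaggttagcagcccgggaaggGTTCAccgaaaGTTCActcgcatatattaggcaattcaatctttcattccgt

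**Figure D1:**
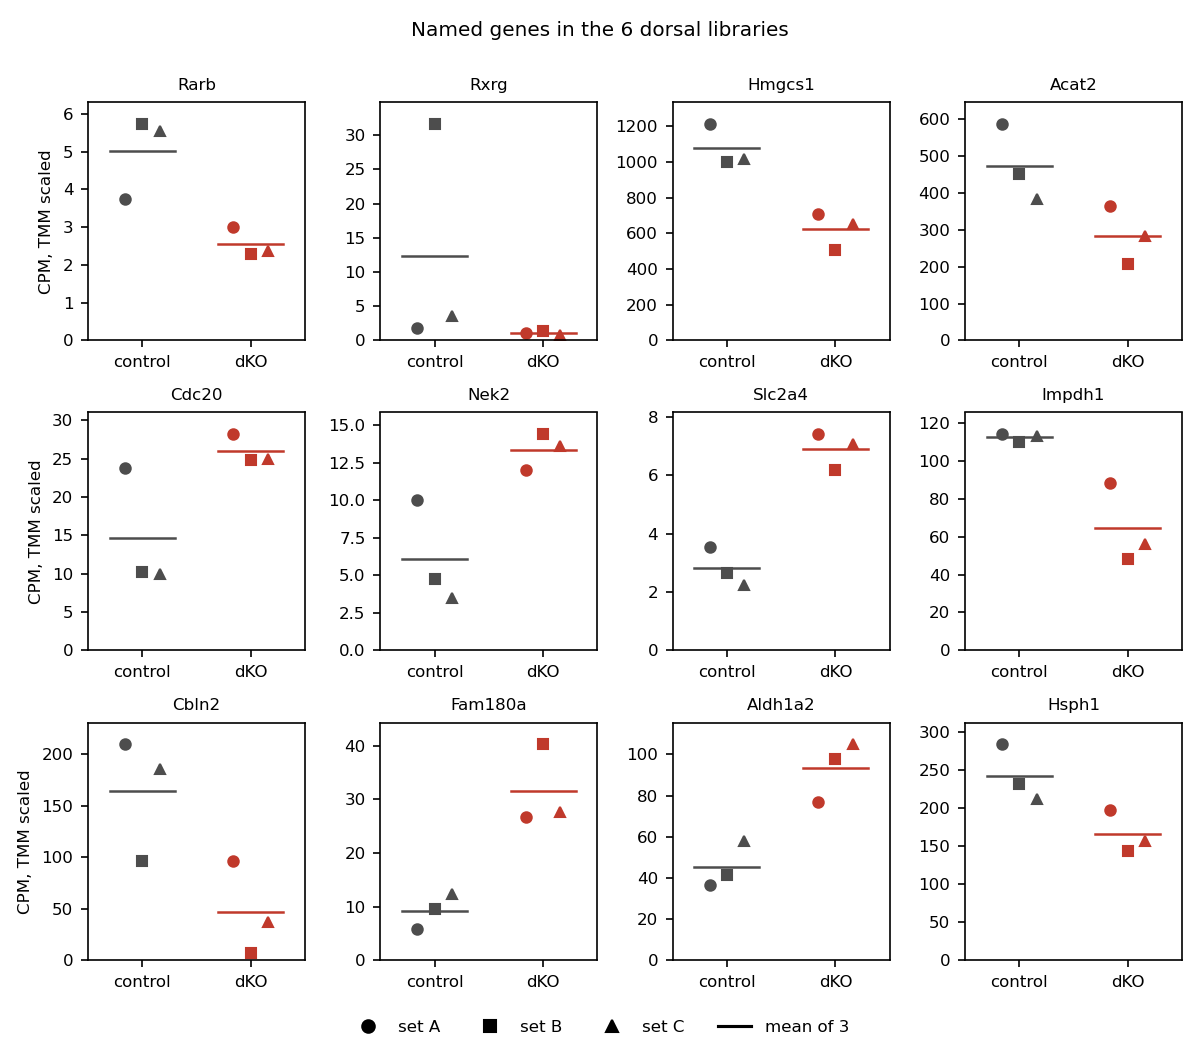
CPM (vertical axes from 0, TMM scaled) of 12 genes in the 6 dorsal libraries, with 1 point for each library, shaped by set, and a line at the mean of 3. Rarb, Rxrg, Hmgcs1, Acat2, Impdh1, Cbln2 and Hsph1 have their dKO points below every control, and Cdc20, Nek2, Slc2a4, Fam180a and Aldh1a2 have them above. None of the 12 passed the edgeR test over all genes with the filter on low counts. With no filter, edgeR called Rxrg, Hmgcs1, Cbln2 and Fam180a. DESeq2 called Hmgcs1, Acat2, Impdh1, Cbln2, Hsph1, Cdc20, Nek2, Slc2a4 and Fam180a.

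Across the dorsal transcriptome 18730 genes were tested. Past the threshold (edgeR quasi-likelihood test, Benjamini-Hochberg adjusted p of 0.05) were 4 genes that rose in dKO, 0.0214% of those tested, and 0 genes that fell, 0%. Without adjustment 1270 genes had a p under 0.05, 550 of them higher and 720 lower. Many genes reach that limit by chance alone. DESeq2 on the same counts called 81 genes, 43 higher and 38 lower, with the 4 among them. Below, a gene that passed did so in the edgeR fit with a filter on low counts, unless another fit is named. A plainer measure counts genes whose 3 dKO libraries all lie above, or all below, the 3 controls: 885 genes (4.73%) lay above and 921 (4.92%) below. With 3 libraries against 3, random order alone separates about this share of genes in each direction, so these counts carry no test of genotype. The median log2 fold change of all genes was -0.01.

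The 4 genes that rose carry only predicted-gene names. Gm6356 (ENSMUSG00000091400, chromosome 14, 6965449 to 6973818) had 2, 1 and 0 fragments in the controls and 975, 1351 and 1368 in dKO, or 0.0303, 0.0358 and 0 CPM against 16, 35.3 and 44.9 CPM. Controls were close to empty and every dKO library was well filled. The ratio of summed counts, each divided by the summed TMM-scaled library sizes of its group, was 1179 (95% Clopper-Pearson interval 403 to 5722, counting error only), and the adjusted p was 1.06e-07. Gm10704 (ENSMUSG00000074479, chromosome 3, 88576410 to 88577139) stood at 0.152, 0.215 and 0.0989 CPM in controls and at 3.58, 8.85 and 8.67 CPM in dKO, with a ratio, scaled in the same way, of 41.4 (26.3 to 69.1) and an adjusted p of 8.21e-05. Gm3373 (ENSMUSG00000094370, chromosome 14, 5718336 to 5741577) held 2, 0 and 1 fragments in controls and 28, 70 and 51 in dKO, a scaled ratio of 47.6 (16 to 233) with an adjusted p of 0.0129. Gm10340 (ENSMUSG00000071613, chromosome 14, 3133997 to 3141609) held 0, 0 and 1 and 23, 50 and 50 fragments, a scaled ratio of 118 (20.8 to 4691) with an adjusted p of 0.0129. By CPM the dKO library of set A was the lowest of the dKO libraries for each of the 4.

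Gm6356 and Gm10704 passed in 18 of 18 fits of the dorsal comparison, and Gm3373 and Gm10340 in 10 of 18. The count of 4 became 2 without the control of set B, without the control of set C or without the dKO library of set C. The same 4 genes passed in medial and in orbital tissue, at adjusted p of at most 0.0136. No difference between regions passed for any of them (adjusted p 0.597 to 1). Fitted fold changes over near-empty controls depend on the prior count and are not given as sizes for these 4 genes.

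Sequences of 3 of these genes are printed because they belong to a group of near-identical copies on the chromosome of a targeted gene. GENCODE M21 lists Gm6356, Gm3373 and Gm10340 as protein-coding genes of chromosome 14, at lower coordinates than Rarb. The first 180 coding bases follow, with capitals where a base differs from Gm6356. Gm3373 was the same at 172 of 180 bases and Gm10340 at 169. Gm3373 and Gm10340 matched each other at 493 of the first 500 coding bases.
Gm6356: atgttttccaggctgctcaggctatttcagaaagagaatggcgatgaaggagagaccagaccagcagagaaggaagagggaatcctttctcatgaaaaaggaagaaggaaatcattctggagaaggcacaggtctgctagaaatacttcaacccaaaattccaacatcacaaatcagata
Gm3373: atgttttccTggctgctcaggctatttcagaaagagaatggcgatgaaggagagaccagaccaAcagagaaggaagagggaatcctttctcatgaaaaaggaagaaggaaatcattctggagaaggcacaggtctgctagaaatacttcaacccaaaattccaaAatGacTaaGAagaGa
Gm10340: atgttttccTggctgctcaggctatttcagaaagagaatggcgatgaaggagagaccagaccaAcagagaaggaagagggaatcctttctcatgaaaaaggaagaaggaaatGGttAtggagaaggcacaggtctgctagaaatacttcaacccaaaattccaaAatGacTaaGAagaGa

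Gm10704 is annotated as a processed pseudogene, a copy of a spliced messenger RNA put back into the genome. It lies on the minus strand of chromosome 3 inside the span of Ssr2 (88575876 to 88588419, plus strand), and its 730 bases matched the coding sequence of Rtraf, a gene of chromosome 14 (19811351 to 19823824), at 720 positions (98.6%). The opening 120 bases are printed beside Rtraf coding bases 3 to 122, with capitals where the pseudogene differs.
Rtraf: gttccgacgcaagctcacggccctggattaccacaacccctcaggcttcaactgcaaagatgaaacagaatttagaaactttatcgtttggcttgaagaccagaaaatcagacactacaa
Gm10704: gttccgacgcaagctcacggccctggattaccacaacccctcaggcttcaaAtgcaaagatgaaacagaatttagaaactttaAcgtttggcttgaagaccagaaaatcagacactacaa
Rtraf itself stood at 97.2, 115 and 113 CPM in controls and at 94.1, 97 and 95.8 CPM in dKO (log2 fold change -0.18, adjusted p = 0.903), and Ssr2, a translocon subunit gene, at 139, 122 and 157 CPM in controls and at 144, 154 and 180 CPM in dKO (0.19, adjusted p = 0.922). Neither passed. Fragments were counted without regard to strand, so Gm10704 and Ssr2 transcripts cannot be separated where they share bases.

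Words of 31 bases give a rough view of how far reads could be told apart. A longer stretch can be unique where none of its words is. Of the words in the Gm6356 transcript 32.9% occur in no other gene's transcripts, against 7.19% for Gm10340, 0% for Gm3373 and 35% for Gm10704. The recorded counting command holds no option for reads with several alignments, and values of single copies are uncertain. With all genes that share a word with Gm6356, Gm3373 or Gm10340, the group holds 139 genes, all on chromosome 14. Of these 37 were tested, 14 with positive and 23 with negative fold changes. The dKO libraries lay above every control for 5 and below every control for 13, beside 4.73% and 4.92% of all genes. The 3 starting genes are among the 5 and were picked for their values, so these counts describe the group and test nothing.

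Fold changes within the group had both signs. Gm3739 stood at 3.96, 2.97 and 10.7 CPM in controls and at 15, 33.7 and 38.4 CPM in dKO (log2 fold change 2.24, SE 0.44, adjusted p = 0.234) and Gm3411 at 1.08, 0.537 and 1.65 against 3.78, 11.4 and 9.52 CPM (2.76, adjusted p = 0.11). Gm3752 had the opposite sign, at 4.26, 4.4 and 9.19 against 2.25, 0.157 and 0.0985 CPM (-3.94, SE 1.145, adjusted p = 0.464). D830030K20Rik had it too, at 3.19, 2.36 and 4.22 against 1.58, 0.0783 and 0.0657 CPM (-3.60, SE 1.092, adjusted p = 0.489). Both sizes are imprecise, since the dKO values of sets B and C lay near 0. These 4 were named after their values were seen, and none passed in the edgeR fit with the filter on low counts. All 4 passed with no filter on low counts, Gm3739 also with the replicate block and with limma-voom with the row as a random effect. DESeq2 called Gm3411 (adjusted p = 4.59e-06), Gm3739 (0.000159) and Gm3752 (0.0463). In each of the 4 the dKO library of set A lay nearer to the controls than those of sets B and C. Within 10 Mb of Rarb, without Rarb and the group, 93 genes were tested, with 3 above every control (3.23%) and 8 below (8.6%). Within 10 Mb of Rxrg 186 were tested, with 7 above (3.76%) and 10 below (5.38%), and no gene of either neighbourhood passed. Of all genes 4.73% lay above and 4.92% below.

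**Figure D2:**
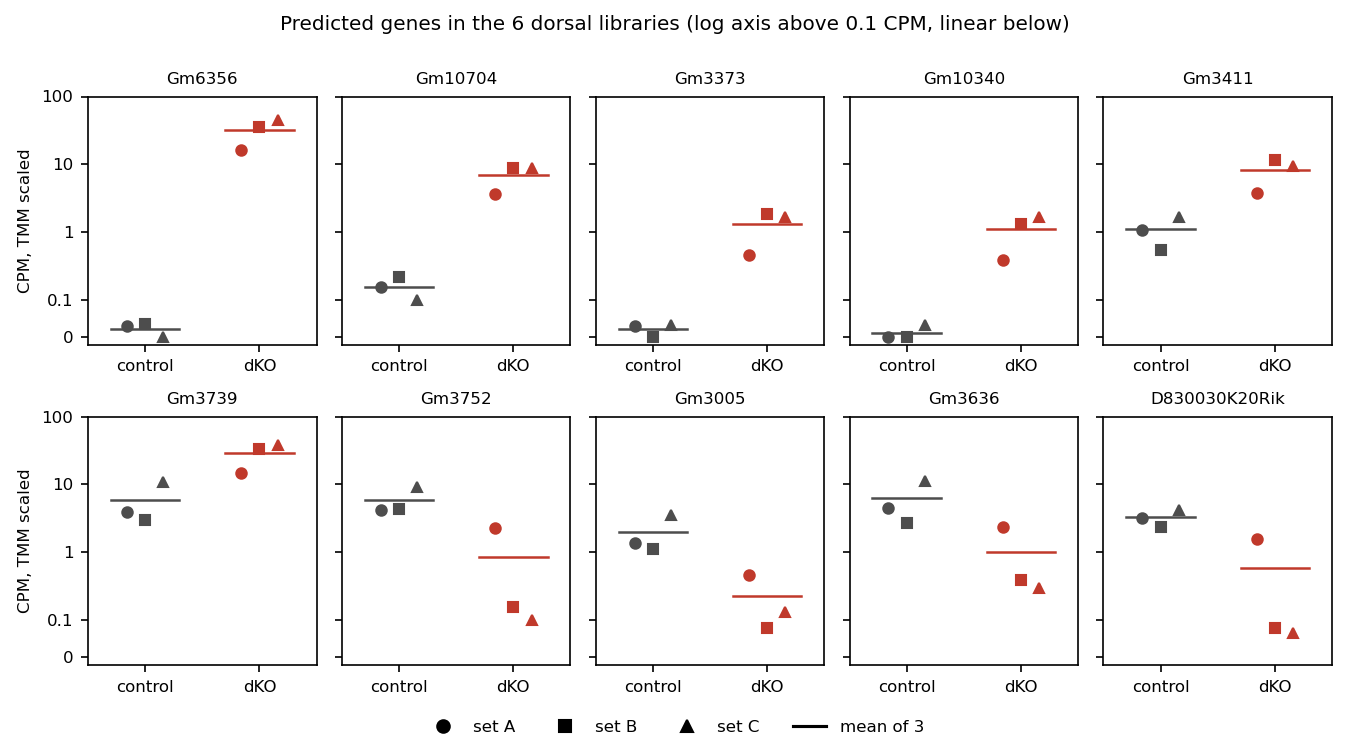
CPM of the 4 predicted genes that rose and of 6 related genes on chromosome 14, in the 6 dorsal libraries, on an axis that is logarithmic above 0.1 CPM and linear below. Points are libraries shaped by set and lines are means of 3; Gm6356 stands at most at 0.0358 CPM in controls and at least at 16 CPM in dKO, while Gm3752, Gm3005, Gm3636 and D830030K20Rik are lower in every dKO library.

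Genes of cholesterol synthesis were lower in dKO without an exception in sign. Newborn brain makes its own cholesterol, from acetyl units through mevalonate and squalene. All 23 measured genes of the path had negative fold changes (median -0.49, beside -0.01 for all genes), 12 of them at unadjusted p under 0.05. Of the 23, 9 lay below every control, beside 4.92% of all genes, and none passed the test over all genes. The lists here and below were chosen with earlier results of these data known. Their counts and medians therefore describe the lists and are no independent sign of direction. The median difference by set was -0.84, -0.68 and -0.10, so set C showed little of it. The summed level of the list was 5109, 4625 and 4030 CPM in controls and 2929, 2866 and 3544 CPM in dKO, without overlap.

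Hmgcs1, which makes the precursor of mevalonate, stood at 1211, 1000 and 1013 CPM in controls and at 708, 509 and 651 CPM in dKO (log2 fold change -0.79, SE 0.16, adjusted p = 0.236). Each set showed the gap, at -0.77, -0.97 and -0.64. Acat2, a thiolase of the first step, stood at 586, 451 and 382 CPM in controls and at 364, 206 and 282 CPM in dKO (-0.74, SE 0.16, adjusted p = 0.359), without overlap. Nsdhl, an X-linked sterol dehydrogenase gene, stood at 81.5, 69.4 and 46 CPM in controls and at 53.8, 29.6 and 31.2 CPM in dKO (-0.81, adjusted p = 0.359), where the dKO library of set A exceeded the control of set C. Fdps, which makes farnesyl diphosphate, stood at 36.3, 34 and 33.5 against 29, 18.1 and 22.4 CPM (-0.60, adjusted p = 0.513). Sqle, which opens the sterol branch, stood at 436, 417 and 295 against 211, 207 and 286 CPM (-0.71, adjusted p = 0.525), without overlap, but in set C it came close to its control. Sc5d, a late enzyme, was at -0.09; it and Sqle were picked from the list for their roles. DESeq2 called Hmgcs1 (adjusted p = 0.00862), Acat2 (0.0144) and Nsdhl (0.0212).

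Promoters of 3 of these genes are shown because all members had fold changes of 1 sign. TCACCCCAC, a form of the sterol response element bound by Srebf2, occurred on either strand in 0.551% of 32851 promoters and in 1 of the 17 cholesterol genes with an entry, Hmgcs1. Its part CACCCCAC occurred in 2.87% of all promoters and in 2 of 17 (11.8%). CCAAT, bound by NF-Y, occurred in 37.4% of all promoters and in 15 of 17 (88.2%). In the windows before the start, 5′ to 3′ on the gene's strand, capitals mark these motifs, with ATTGG standing for CCAAT on the other strand.
Hmgcs1 (chr13:119690161-119690350, plus strand): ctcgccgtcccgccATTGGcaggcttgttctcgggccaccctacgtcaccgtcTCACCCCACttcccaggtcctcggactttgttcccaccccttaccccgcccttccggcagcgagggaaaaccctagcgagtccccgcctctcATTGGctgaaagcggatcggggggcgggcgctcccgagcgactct
Acat2 (chr17:12960726-12960915, minus strand): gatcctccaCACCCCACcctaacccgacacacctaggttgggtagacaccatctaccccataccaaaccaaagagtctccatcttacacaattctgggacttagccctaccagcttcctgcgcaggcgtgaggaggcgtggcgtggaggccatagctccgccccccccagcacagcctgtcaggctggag
Nsdhl (chrX:72918401-72918520, plus strand): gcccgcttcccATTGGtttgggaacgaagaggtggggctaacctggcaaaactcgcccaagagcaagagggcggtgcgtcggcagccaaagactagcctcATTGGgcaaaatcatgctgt

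Genes of mitosis had the opposite sign. The list holds kinases, cyclins, spindle motors and centromere proteins of dividing cells. All 30 had positive fold changes (median 0.75), 17 at unadjusted p under 0.05, and 8 lay above every control, beside 4.73% of all genes. None passed over all genes. This list, too, was chosen with earlier results of these data known. The sets differed, with medians of 0.01, 0.96 and 1.36. The summed level was 485, 251 and 173 CPM in controls and 493, 491 and 437 CPM in dKO: the control of set A was near the dKO libraries and the gap lay in sets B and C. The list's median was 1.12 without the control of set A and 0.51 without the control of set C.

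Cdc20, which switches on the ubiquitin ligase of anaphase, stood at 23.8, 10.2 and 10 CPM in controls and at 28.2, 24.8 and 25 CPM in dKO (log2 fold change 0.92, SE 0.20, adjusted p = 0.359). Nek2, a centrosome kinase gene, stood at 10, 4.76 and 3.49 CPM in controls and at 12, 14.4 and 13.6 CPM in dKO (1.23, SE 0.28, adjusted p = 0.359). Cenpa, the histone of centromeres, stood at 10.1, 6.26 and 5.47 CPM in controls and at 12, 13.8 and 14.5 CPM in dKO (0.92, adjusted p = 0.359). These 3 separated the groups, by small margins in set A. Nusap1, of the spindle, was at 0.81 (adjusted p = 0.422). With DESeq2, Cdc20 (adjusted p = 0.00886), Nek2 (0.0137), Cenpa (0.0212) and Nusap1 (0.0489) were called. DNA replication genes were shifted less: 16 of 25 were positive, the median was 0.10 and 1 lay above every control, beside 4.73% of all genes. Markers of radial glia, the stem cells of the embryonic cortex, had a median of 0.12 and summed to 1668, 1730 and 1721 CPM in controls and 1694, 1706 and 1643 CPM in dKO.

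Intermediate progenitors, which stand between radial glia and neurons, had 10 measured markers with a median of 0.59; 8 were positive, 3 lay above and 1 below every control, beside 4.73% and 4.92% of all genes. Eomes, their defining factor, stood at 2.28, 0.0358 and 0 CPM in controls and at 2.38, 3.37 and 3.97 CPM in dKO (log2 fold change 2.81, SE 1.16, adjusted p = 0.654). It was near 0 in the controls of sets B and C, which were also the lower controls for the mitosis list. Over the other fits its fold change ran from 1.94 without a term for the title prefix to 7.17 without the control of set A. Mfap4, a matrix protein gene on this list, stood at 32.1, 27.7 and 22.3 against 61.9, 47.4 and 48.3 CPM (0.94, adjusted p = 0.359), and Elavl4, an RNA-binding protein gene of neurons, at 79.5, 96.5 and 72.1 against 59.3, 52.1 and 62.9 CPM (-0.51, adjusted p = 0.536). Neither overlapped. Layer markers had medians near that of all genes, -0.09 for 15 upper layer and -0.10 for 19 deep layer genes.

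The promoters of Cdc20, Nek2 and Cenpa are shown for the same reason. Of 26 mitosis genes with an entry 22 (84.6%) held CCAAT, beside 37.4% of all promoters. TTTGAA, a form of the cell cycle homology region, occurred in 20 (76.9%), beside 17.9% of all promoters and 1 of 17 cholesterol genes. Both strands were searched, and capitals mark both motifs in the 120 bases before the start. A match describes letters and is no evidence of binding. In Cenpa the TTTGAA begins 17 bases after the start, outside the window, and in the Nek2 promoter these letters do not occur.
Cdc20 (chr4:118437344-118437463, minus strand): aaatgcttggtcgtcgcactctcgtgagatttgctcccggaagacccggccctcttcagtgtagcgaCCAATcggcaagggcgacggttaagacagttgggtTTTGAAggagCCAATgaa
Nek2 (chr1:191821353-191821472, plus strand): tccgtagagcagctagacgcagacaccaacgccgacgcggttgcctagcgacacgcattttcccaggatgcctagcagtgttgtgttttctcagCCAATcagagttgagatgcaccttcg
Cenpa (chr5:30666766-30666885, plus strand): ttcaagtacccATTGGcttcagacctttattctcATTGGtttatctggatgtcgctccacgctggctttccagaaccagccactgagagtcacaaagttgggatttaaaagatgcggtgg

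**Figure D3:**
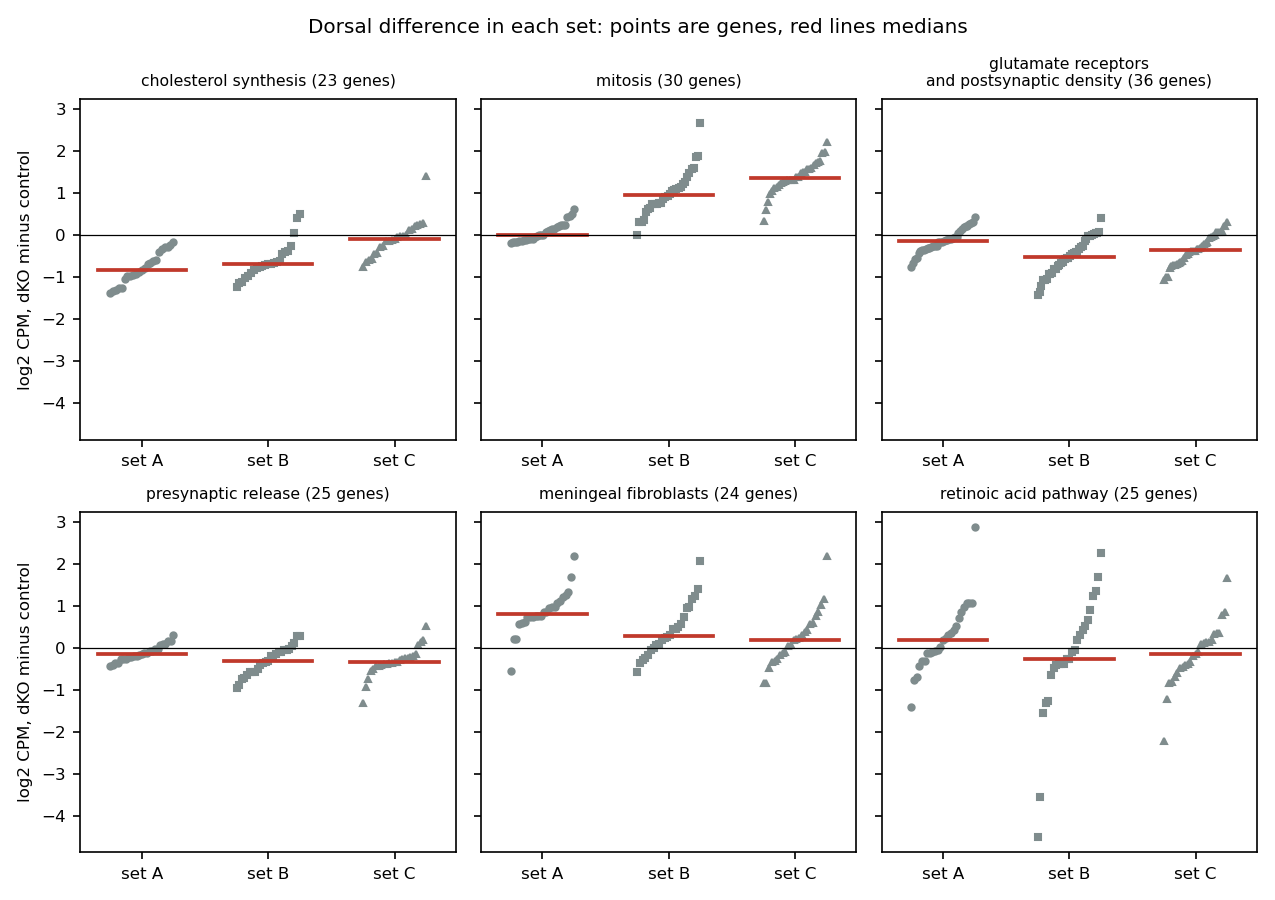
Difference in log2 CPM (dKO minus control, dorsal libraries) for each tested gene of 6 lists, set by set. Points are genes in order of value and red lines are medians: cholesterol synthesis has medians of -0.84, -0.68 and -0.10 in sets A, B and C, and mitosis of 0.01, 0.96 and 1.36.

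Genes of synapses had mostly negative fold changes. All 36 measured genes of glutamate receptors and the postsynaptic density were negative (median -0.34), and 3 lay below every control. Of 25 presynaptic release genes 22 were negative (median -0.25, 4 below), of 32 synaptic organizers 23 (median -0.24, 5 below) and of 12 GABA-A receptor subunits 11 (median -0.32, 3 below), beside 4.92% of all genes below. None of these genes passed, and these lists, too, were chosen with earlier results of these data known. The glutamate list had set medians of -0.14, -0.51 and -0.35.

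Cbln2, a secreted organizer that links presynaptic neurexins to postsynaptic receptors, had the lowest p of the organizers. It stood at 210, 97 and 186 CPM in controls and at 96.7, 6.76 and 37.6 CPM in dKO (log2 fold change -2.02, SE 0.53, adjusted p = 0.398). The groups nearly touch, since the dKO value of set A is close to the control of set B. Over the other fits the value ran from -2.97 with sex as a covariate to -1.48 without the dKO library of set B. DESeq2 called Cbln2 (adjusted p = 0.0212), as did edgeR with no filter on low counts (adjusted p = 0.000674). Nlgn2, the neuroligin of inhibitory synapses, stood at 14.8, 14.8 and 17.6 against 11.3, 9.22 and 13.3 CPM (-0.48, adjusted p = 0.676) and was lower in every dKO library than in any control.

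Among receptors and their scaffolds, Grm7, a presynaptic glutamate receptor gene, was at -0.87, Grm2 at -0.69, the NMDA receptor subunit gene Grin1 at -0.44 and the scaffold gene Dlgap3 at -0.51, with adjusted p from 0.525 to 0.722; of these Dlgap3 alone did not overlap. Of the release machinery, Rims1, of the active zone, stood at 55.3, 67.9 and 51.7 against 41.7, 37 and 36.4 CPM (-0.60, adjusted p = 0.565) and Syn2, of synaptic vesicles, at 92.8, 90.4 and 86.8 against 76.9, 54.6 and 75.5 CPM (-0.39, adjusted p = 0.628). Cplx2, a complexin that controls release, was at -0.56 with overlap.

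The retinoic acid pathway was split by sign. Among genes that make the signal, Aldh1a2, the retinaldehyde dehydrogenase of the meninges, stood at 36.6, 41.6 and 57.9 CPM in controls and at 77, 97.9 and 105 CPM in dKO (log2 fold change 1.04, SE 0.32, adjusted p = 0.488). Rdh10, which makes retinaldehyde, stood at 5.4, 5.37 and 9.19 CPM in controls and at 7.82, 17.5 and 29.5 CPM in dKO (1.33, SE 0.37, adjusted p = 0.43). Aldh1a2 lay above every control, and for Rdh10 the dKO library of set A was below the control of set C. Rdh10 was called by DESeq2 (adjusted p = 0.0475). Stra6, the retinol importer, stood at 41.1, 33.9 and 57 against 67.5, 87.3 and 65.6 CPM (0.74, adjusted p = 0.77), without overlap. Among receptors Rarg stood at 4.67, 8.81 and 5.93 against 4.39, 3.63 and 3.68 CPM (-0.71, adjusted p = 0.751), and Rara, Rxra and Rxrb were at -0.21, -0.07 and 0.00. Cyp26b1, which degrades retinoic acid, stood at 33.9, 16.3 and 36.9 against 12.7, 1.36 and 28.3 CPM (-1.02, SE 0.66, adjusted p = 0.836), with overlap. Stra6, Cyp26b1 and the other receptors were picked for their roles. Of the 25 measured members 9 were positive and 16 negative, the median was -0.04, 2 lay above and 3 below every control (beside 4.73% and 4.92% of all genes), and none passed. The 3 below were the targeted Rarb and Rxrg, and Rarg.

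Markers of meningeal fibroblasts, the cells of the brain's coverings, include Aldh1a2. Of 24 measured, 21 were positive (median 0.46) and 13 lay above every control, beside 4.73% of all genes; none passed. Fam180a, Pdgfrl and C1qtnf7 were on the list because of an earlier result on these libraries, so they are no independent sign of its direction. Fam180a stood at 5.89, 9.49 and 12.4 CPM in controls and at 26.8, 40.3 and 27.6 CPM in dKO (log2 fold change 1.86, SE 0.38, adjusted p = 0.245), Pdgfrl was at 0.88 and C1qtnf7 at 1.64. With DESeq2, Fam180a (adjusted p = 0.00162), Pdgfrl (0.00389) and C1qtnf7 (0.00997) were called. The collagen genes were less even: Col1a1 stood at 223, 254 and 277 against 331, 226 and 200 CPM and Col1a2 at 282, 293 and 297 against 426, 345 and 273 CPM, both with overlap, while Dcn, a matrix proteoglycan, stood at 108, 115 and 170 against 183, 191 and 198 CPM, without. The summed level of the list was 1683, 2030 and 2335 CPM in controls and 3051, 2865 and 2437 CPM in dKO, and the set medians were 0.81, 0.28 and 0.20. With sex as a covariate the list's median was 0.24. The part of meningeal tissue in the other results was not tested.

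Endothelial cells and pericytes had a median of 0.19, with 4 of 23 markers above every control (beside 4.73% of all genes), among them the tight junction gene Cldn5 at 56.6, 64.9 and 43.1 against 79.1, 75.4 and 75.5 CPM. Microglia and macrophages had a median of 0.22, with 3 of 16 above, such as Tmem119 at 16.6, 15.2 and 16.2 against 20.3, 24.8 and 31.7 CPM, while the defining Cx3cr1 (-0.33) and P2ry12 (-0.19) were negative and overlapped. The 6 measured erythroid markers were all positive (median 0.32), but 1 lay above every control, the beta globin gene Hbb-bs at 280, 474 and 237 against 739, 484 and 507 CPM. By set the erythroid medians were 1.41, -0.35 and 0.42, so set B had the other sign. Striatal projection neuron markers had a median of -0.30 with 3 of 17 below every control, beside 4.92% of all genes, Rarb being 1 of them. Medians were 0.04 for astrocytes, -0.06 for the oligodendrocyte lineage and 0.01 for interneurons. In bulk tissue, a change in the number of cells of a type and in RNA per cell cannot be told apart.

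Predicted genes set aside, several genes outside the larger lists were among those of lowest p, though none passed in the edgeR fit. Slc2a4, the insulin-responsive glucose transporter, stood at 3.55, 2.65 and 2.24 CPM in controls and at 7.41, 6.19 and 7.06 CPM in dKO (log2 fold change 1.31, SE 0.26, adjusted p = 0.234). The groups were apart in each set, by 1.05, 1.21 and 1.64. Net1, an exchange factor for RhoA, stood at 19.7, 25.1 and 25.5 against 31.8, 50.4 and 39.2 CPM (0.78, adjusted p = 0.359). Plek, a pleckstrin gene of blood and immune cells, was at 1.12, also above every control. With DESeq2, Slc2a4 (adjusted p = 0.000615), Net1 (0.0172) and Plek (0.021) were called.

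Impdh1, an enzyme of guanine nucleotide synthesis, stood at 114, 110 and 113 CPM in controls and at 88.5, 48.3 and 56.2 CPM in dKO (log2 fold change -0.85, SE 0.16, adjusted p = 0.223). Its controls lay close together and the dKO library of set A was the nearest to them. Of 16 purine genes 13 were negative, with a median of -0.05 and 2 below every control, beside 4.92% of all genes. Mgat4c, of the family that branches N-glycans, stood at 13.6, 13.2 and 13.4 CPM in controls and at 6.34, 5.9 and 8.44 CPM in dKO (-0.97, SE 0.20, adjusted p = 0.236). B4galt5, which makes lactosylceramide, stood at 80.2, 107 and 115 against 46.8, 60.4 and 68.9 CPM (-0.78, SE 0.16, adjusted p = 0.236), and its paralogue B4galt6 was at -0.52, also without overlap. Of 25 glycosyltransferases 17 were negative (median -0.12, 5 below every control, beside 4.92% of all genes). Ydjc was at -0.94, Wdr17 at -0.73, Cab39l at -0.75, Far2, a fatty acyl reductase gene, at -0.70, the ubiquilin gene Ubqln4 at -0.69 and Lztr1, an adaptor of ubiquitin ligases, at -0.57, with adjusted p from 0.236 to 0.359. With DESeq2, Impdh1 and Mgat4c (adjusted p = 0.00126 each), Ydjc (0.00219), B4galt5 (0.00331) and Wdr17 (0.00997) were called. So were Far2 (0.0144), Cab39l (0.0151), Lztr1 (0.0172), Ubqln4 (0.02) and B4galt6 (0.0366).

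The chaperone gene Hsph1 stood at 284, 232 and 212 CPM in controls and at 198, 144 and 157 CPM in dKO (log2 fold change -0.55, SE 0.13, adjusted p = 0.359), and its partner Hspa8, a constitutive heat shock protein gene, at 882, 1028 and 994 CPM in controls and at 651, 806 and 681 CPM in dKO (-0.44, adjusted p = 0.513). Both lay below every control, as did Hspa5 of the endoplasmic reticulum. Hsph1 was called by DESeq2 (adjusted p = 0.0366). The list of 16 chaperone genes had 10 positive members and a median of 0.02. In glucose transport and glycolysis 15 of 22 were negative (median -0.16, 2 above and 3 below every control, beside 4.73% and 4.92% of all genes), with Pfkl, a phosphofructokinase gene, at -0.61 (adjusted p = 0.422).

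The dorsal values were set beside those of the other 2 regions, each with its own control libraries; the labels do not say whether regions of the same prefix and index row came from 1 brain. The mitosis median was 1.53 in medial and 0.61 in orbital tissue beside 0.75 in dorsal tissue. Cholesterol synthesis had medians of -0.68 and -0.38 there, beside -0.49. The glutamate list was at -0.62 in medial and 0.16 in orbital tissue, and the meningeal list at 0.22 and -0.52. These medians carry no test. The test of the difference itself, gene by gene, called 0 genes (0%) for dorsal minus medial and 0 (0%) for dorsal minus orbital (edgeR), with 969 and 2363 genes at unadjusted p under 0.05. Some genes reach that limit by chance alone. DESeq2 called 61 and 313. On simulated counts the edgeR test of the difference recovered only 12 and 8 of 100 genes changed 2-fold. Those counts were drawn without correlation within a row of regions, so they do not measure the power of the test here. The 0 calls do not show that the regions are alike.

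With the lowest p against medial tissue, Fam210b, a mitochondrial protein gene, stood at 230, 144 and 191 against 221, 212 and 260 CPM in dorsal libraries. Its log2 fold change was 0.31 in dorsal and 1.89 in medial tissue, a difference of -1.58 (SE 0.23, adjusted p = 0.161). Brca1, of DNA repair, differed by -2.85, the membrane linker gene Ezr by -1.66 and Smpdl3a by -1.06. Scg2, a secretogranin of dense-core vesicles, differed by 1.86 (SE 0.35, adjusted p = 0.348), at 0.53 in dorsal and -1.30 in medial tissue. Against orbital tissue, genes with the lowest p included Flrt2, an adhesion and guidance gene (-1.43, SE 0.22), the stress gene Nupr1 (2.13), Itm2c (0.85) and Cxxc4, a Wnt inhibitor gene (-1.22, SE 0.21), each at adjusted p = 0.126. Cxxc4 stood at 49.2, 49.4 and 50 CPM in controls and at 29.5, 30.7 and 40.6 CPM in dKO in dorsal tissue, without overlap.

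**Figure D4:**
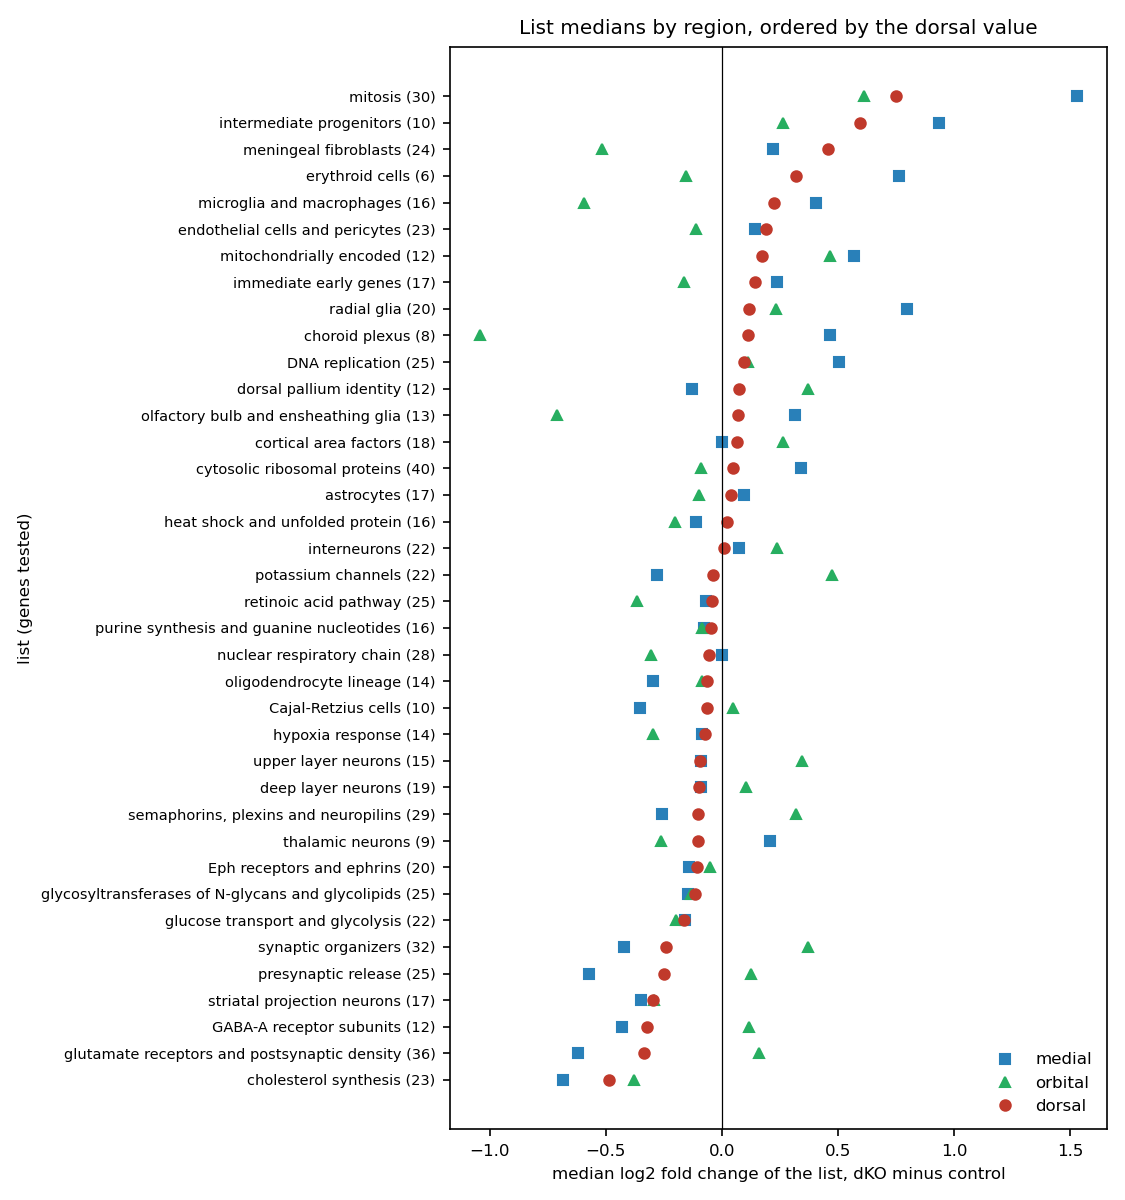
Median log2 fold change (dKO minus control) of each of 38 gene lists in dorsal, medial and orbital tissue, ordered by the dorsal value, with the number of genes tested in brackets. Mitosis has the highest dorsal median of the 38 at 0.75 and cholesterol synthesis the lowest at -0.49; the points carry no test of a list.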

How the data were processed

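Whole-gene fragment counts were deposited as 1 table of the series; per the file headers and the submitters' processing notes, the authors aligned reads with STAR 2.6 and counted fragments without strand with featureCounts 1.6.2 on Ensembl 94. Libraries were grouped by their labels, and 6 columns that match no sample were not used. Counts were scaled by TMM and tested with edgeR 4.0.16 (R 4.3.3) quasi-likelihood fits over all 18 libraries, with 6 group means and the title prefix, on 18730 genes that passed a filter at a minimum count of 10 (minimum total 15). P-values were adjusted over all genes at 0.05. Differences between regions were fitted as interactions with the row of regions as a block. The main fit took its spread from all 18 libraries and treated them as independent. Libraries of the same row correlated at 0.363 (limma-voom estimate). Alternatives used DESeq2 1.42.0, limma 3.58.1, other scalings, filters and covariates, and each library left out. The fits were tested on simulated data. There the dorsal edgeR fit recovered 60 of 100 abundant genes changed 2-fold, with 9 false calls. Members and lists were chosen with earlier results of these data known. Named genes were Rarb, Rxrg, those past the threshold, the 12 higher and 12 lower genes of lowest p with 1 sign in the 3 sets and a mean of at least 1 CPM (predicted genes with Gm or clone names, Y-linked genes and Xist left out), the first 4 of each list by p (with the 4 most abundant for other cell types), and 5 for each difference between regions, and some genes of that rule are not reported here. Others are named for their role. Sequences came from RefSeq (GRCm38.p6) and GENCODE M21; of promoters, the first entry of a gene was used.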

Additional observations from a re-analysis of the deposited data

How the results depend on the processing

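The dorsal count of 4 genes was 4 with DESeq2-style size factors or autosomal genes alone, 3 with limma-voom with or without the row as a random effect, 2 with dorsal libraries alone, with or without the replicate block, 2 without the prefix term or at an adjusted p of 0.01, 9 with sex as a covariate, 26 with no filter on low counts and 81 with DESeq2. Leaving out 1 library gave 2 to 4. Dorsal deviations from the group means correlated at 0.32, 0.027 and 0.197 for same-numbered replicates. For differently numbered ones the correlations ran from -0.263 to 0.0847. These few values do not settle whether replicate numbers pair the samples. The replicate block gave 6 dorsal calls, the 4 included, and 0 for each region difference. For dorsal minus medial, no filter gave 72 genes and DESeq2 61; for dorsal minus orbital they gave 578 and 313. Leaving out 1 library gave 0 to 1 for each, the 1 being Scg2 without the control of set A for medial tissue, and Stra6 without that control for orbital tissue, where leaving out the control of set C also gave 1. The causes were not tested.

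Of 155 named genes, log2 values changed sign for Ccn2 (-0.073), Alas2 (-0.221) and Hba-a1 (-0.268) with sex as a covariate. With 1 library left out, values crossed 0 for Bcas1 (-0.570 to 0.054), Sostdc1 (-1.233 to 0.024) and Hba-a1 (-0.005 to 0.852), which turned without the control of set A; for Ebf2 (-1.002 to 0.318), Lhx5 (-0.724 to 0.448) and Aqp1 (-0.031 to 0.584), without the control of set B; and for Trp73 (-0.064 to 0.425) and Calml4 (-0.883 to 0.108), without the control of set C. List medians changed sign in at least 1 alternative for 20 of 38 lists, none of them mitosis, cholesterol synthesis, meningeal fibroblasts or the 4 synaptic lists; mitochondrially encoded genes have no value on autosomes alone. Controls close to 0 counts limit the precision of the 4 genes that passed.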
